A study of Mus musculus with 10 samples.

Results

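Potassium channel genes were compared between 8 weeks and 1 week of age in brain RNA of the inbred mouse strain C57BL/6. The members were all probe sets whose single annotation symbol on the Affymetrix MOE430A array, a short-oligonucleotide array, starts with Kcn, which covers pore-forming and auxiliary subunits. There were 90 such probe sets, of 22690 on the array, and they stood for 62 of the 12393 genes with a symbol of their own. The 10 arrays held 2 samples labelled female and 2 labelled male at 8 weeks, and 3 labelled female and 3 labelled male at 1 week, with no treatment or genotype named beyond the strain. Brains are numbered within a group in the labels, but separate animals are not named, so a p-value here reflects only the spread between samples, which may be technical.

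Potassium channels set the resting potential of a cell and bring the membrane back after an action potential. Voltage-gated (Kv) channels open on depolarization, and those of the Kv1 and Kv3 groups allow brief spikes and high firing rates, while Kv4 channels damp the spread of signals in dendrites. Inward rectifiers (Kir) and 2-pore channels carry the resting conductance of neurons and take up potassium in astrocytes, and calcium-activated channels couple the membrane to calcium entry. Many pores work with auxiliary subunits: cytoplasmic Kv beta subunits on Kv1, the calcium-binding KChIP proteins on Kv4, and small Kcne or Kcnmb membrane proteins on others.

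Arrays were quantile-normalized, and values below are normalized intensities of the brightest probe set of a gene unless another is named. Intensities of different probe sets cannot be set against each other as levels. Before normalization the trimmed mean of an array was 255 to 318 at 8 weeks and 138 to 236 at 1 week, and the number of arrays limits the precision. The X-linked Xist and the Y-linked Eif2s3y went against the sex label in 4 of the 6 arrays at 1 week, and another carried both transcripts, so at 1 week the label does not give the sex of the sample. All 8 neuronal markers checked were measured, with a summed intensity from 13818 to 14826 at 8 weeks and from 7824 to 10317 at 1 week. The 9 cerebellar neuron markers summed from 6379 to 22293 at 8 weeks and from 2519 to 8303 at 1 week, the 9 astrocyte markers from 14245 to 15380.2 at 8 weeks and from 6427 to 8977 at 1 week, and 7 myelin markers (8 on the array, 10 listed) from 13940.4 to 18049.7 at 8 weeks and from 2388 to 11389 at 1 week. The 8 immature neuron markers summed from 5116 to 5438 at 8 weeks and from 20622 to 23399 at 1 week. These totals moved with age together with the channel genes, and their part in each result below was not tested. In whole brain, fewer cells of a type and less RNA per cell cannot be told apart.

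More potassium channel genes were higher than lower at 8 weeks, led by the Kv1 pore gene Kcna1 and its beta subunits Kcnab2 and Kcnab1, and the steepest fall was that of Kcne1l. Of 62 genes, 35 had at least 1 probe set above the intensity filter, which kept the brighter 13576 of 22626 probe sets. With limma and Benjamini-Hochberg adjustment over all probe sets tested, 18 of the 35 were higher at 8 weeks at an adjusted p under 0.05, beside 21.9% of all 8148 genes tested. At 8 weeks 3 of the 35 were lower, beside 24% of all genes. By probe set, 23 of 44 were higher, beside 22% of all probe sets, and 3 were lower, beside 24%. The median log2 change, 8 weeks minus 1 week, was 0.39 over the 35 genes and -0.020 over all genes tested. A filter on intensity can keep a gene because it is bright at one age, so the counts describe the measured members only. With no filter 30 of the 90 probe sets were higher and 4 lower, beside 14.7% and 15.3% of all 22626.

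**Figure D1:**
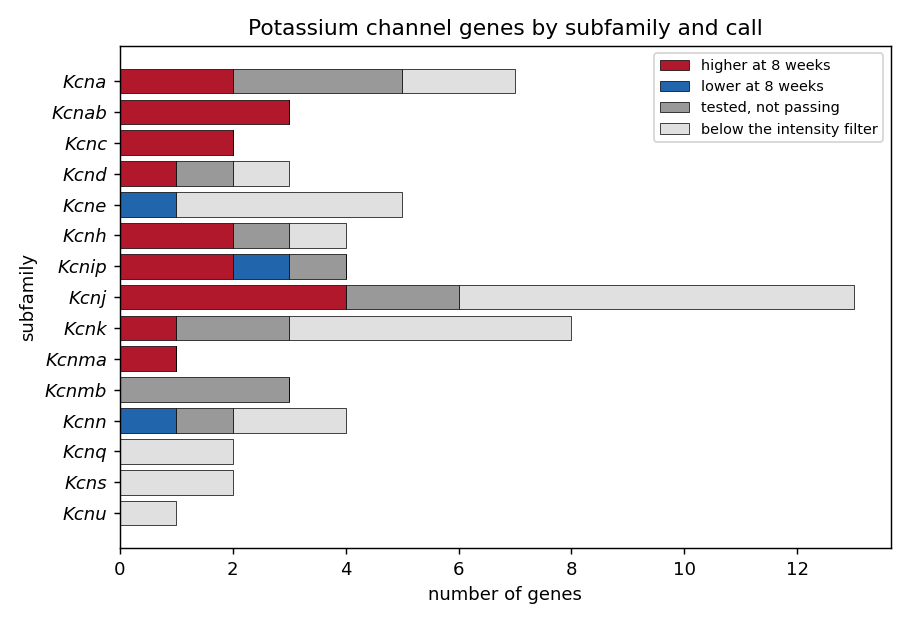
Number of potassium channel genes in each subfamily, by call at 8 weeks against 1 week. Bars count genes (horizontal axis), split into higher, lower, tested but not passing, and below the intensity filter. All 3 Kcnab and both Kcnc genes were higher, beside 21.9% of all genes tested. The genes that were lower lie in Kcne, Kcnip and Kcnn, of which the Kcnip and Kcnn calls are lost without normalization.

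The arrays of the 2 ages did not overlap, with 8 weeks above, in 13 of the 35 genes, beside 17.5% of all genes, and with 8 weeks below in 3, beside 18.4%. At least 2-fold changes were called upward in 9 genes, beside 3.07% of all genes, and downward in 1, beside 2.77%. Folds were taken after adding 24 to each intensity, which shrinks the changes of dim genes. Kcnj9, with means of 152 at 8 weeks and 65.8 at 1 week, had a fold of 1.97 and was not counted. Directions depend on how arrays are scaled. Without normalization between arrays, where the probe sets tested had a median change of 0.47, 29 genes were higher and 1 lower, beside 64.6% and 4.48% of all genes. Most genes were thus called higher on that scale. Scaled to the spike-in controls, where that median was 0.15, 19 were higher and 1 lower, beside 19.6% and 7.07%. Without the 4 arrays whose sex transcripts opposed their label, with age alone in the model, 14 were higher and 3 lower, beside 15.5% and 14.2%. The lowest count of genes higher after leaving out 1 array was 14, without replicate 2 labelled male at 8 weeks, with 3 lower, beside 18.3% and 20.1% of all genes. Without 5 arrays, the fifth being the one with both sex transcripts, 15 were higher and 2 lower, beside 15% and 12.3%. That setting was chosen after seeing the data and left 1 array of 1 week, replicate 1 labelled male. Of all arrays it had the lowest trimmed mean before normalization, 138, and the lowest cerebellar marker sum, 2519.

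**Figure D2:**
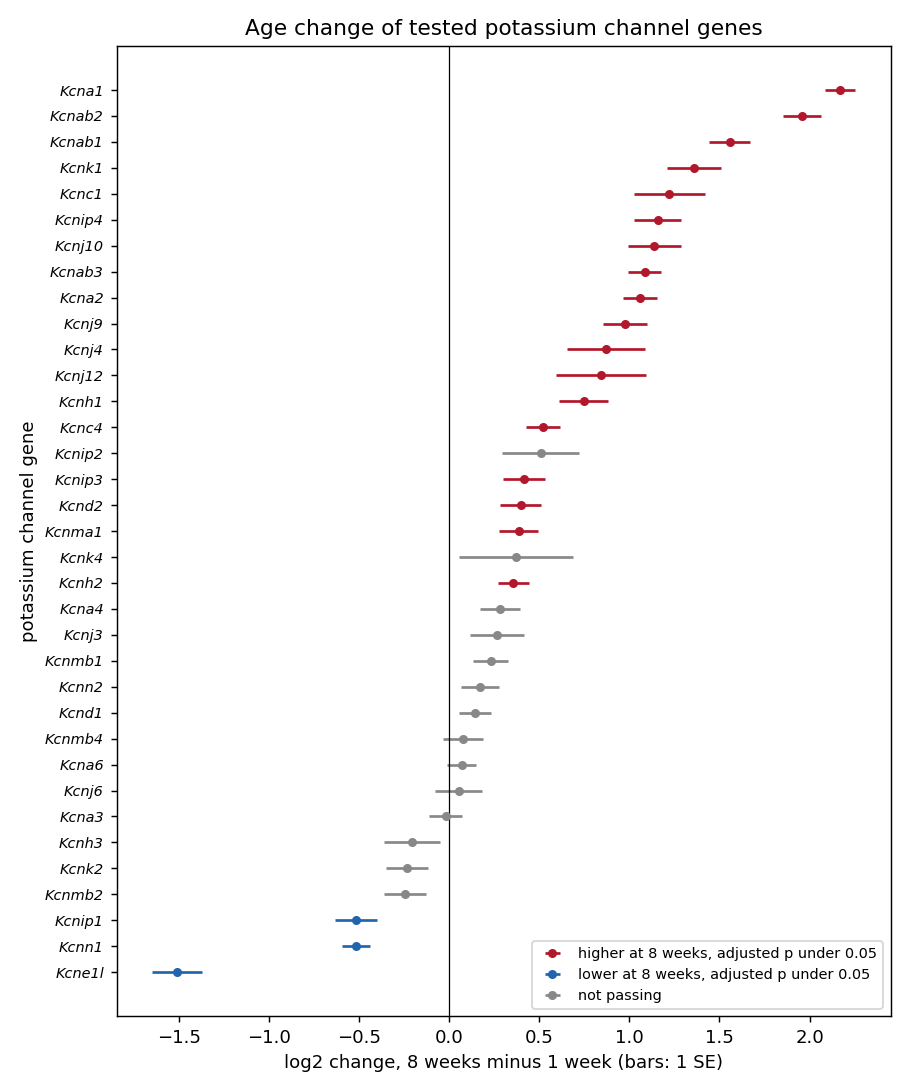
Log2 change, 8 weeks minus 1 week (horizontal axis), of the 35 tested potassium channel genes, 1 row per gene, with bars of 1 SE and colours for the call at an adjusted p under 0.05. Changes run from -1.51 for Kcne1l at the bottom to 2.17 for Kcna1 at the top, and Kcnn1 and Kcnip1 lose their calls on the deposited and spike-in scales.

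Among Kv1 pore genes 2 of the 5 measured, of 7 listed, were higher at 8 weeks, and none was lower, beside 21.9% and 24% of all genes. Kcna1, which encodes a Kv1 pore of axons and nerve terminals, read 1188, 1259, 1214 and 1466 at 8 weeks in replicates 1 and 2 labelled female and replicates 1 and 2 labelled male, an order kept below. Its lowest, median and highest values at 1 week, also an order kept below, were 252, 255 and 313. Every array of 8 weeks thus lay above every array of 1 week, at a log2 change of 2.17 ± 0.085 (adjusted p = 2.06e-07). Kcna2, a partner pore in the same axonal channels, read 383, 386, 346 and 348 at 8 weeks, against 128, 162 and 205 at 1 week. Its 4 arrays of 8 weeks lay close together and apart from those of 1 week, with a change of 1.06 ± 0.093 (adjusted p = 1.40e-05). The other 3 pores did not pass. Kcna6 averaged 182 ± 7.33 at 8 weeks and 174 ± 25.9 at 1 week (SD, n = 4 and 6), with an interval of its change of -0.11 to 0.25. That of Kcna3, the Kv1 pore also known from lymphocytes, was -0.22 to 0.18, and the gene turned to a called 0.37 on the deposited scale. Kcna4, a fast-inactivating pore, had a log2 difference of 0.28 ± 0.11 (adjusted p = 0.0580), and passed without replicate 2 labelled female at 8 weeks (0.39, adjusted p = 0.0217) or without replicate 2 labelled male at 1 week (0.35, adjusted p = 0.0200). The 95% intervals of Kcna3 and Kcna6 lie wholly below those of Kcna1 and Kcna2, 1.98 to 2.36 and 0.85 to 1.27, though the difference between genes was not tested.

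Kv beta subunits sit on the cytoplasmic face of Kv1 channels and affect their gating and traffic. They were higher at 8 weeks in 3 of 3 genes, beside 21.9% of all genes. Kcnab2 read 829, 1011, 1020.5 and 867 at 8 weeks, against 192, 220.0 and 255 at 1 week. The ages were far apart on every array, with a change of 1.96 ± 0.10 (adjusted p = 7.53e-07). Its other tested probe set averaged 565 ± 49.1 at 8 weeks and 90.5 ± 55.2 at 1 week (SD, n = 4 and 6), a change of 2.54 ± 0.38. Kcnab1, which speeds the inactivation of Kv1 channels, read 1123, 1061, 1222 and 1414 at 8 weeks, against 318, 378 and 479 at 1 week. These arrays did not overlap either, and the change was 1.56 ± 0.11 (adjusted p = 4.22e-06), with 1.02 ± 0.12 for the other probe set. Kcnab3 read 147, 195, 225 and 233 at 8 weeks, against 67.0, 80.2 and 92.9 at 1 week, and its change was 1.08 ± 0.093 (adjusted p = 1.17e-05). Its lowest array at 8 weeks was replicate 1 labelled female, still above all of 1 week. The calls of Kcna1, Kcna2 and the 3 Kcnab genes held under every alternative in which they were tested.

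**Figure D3:**
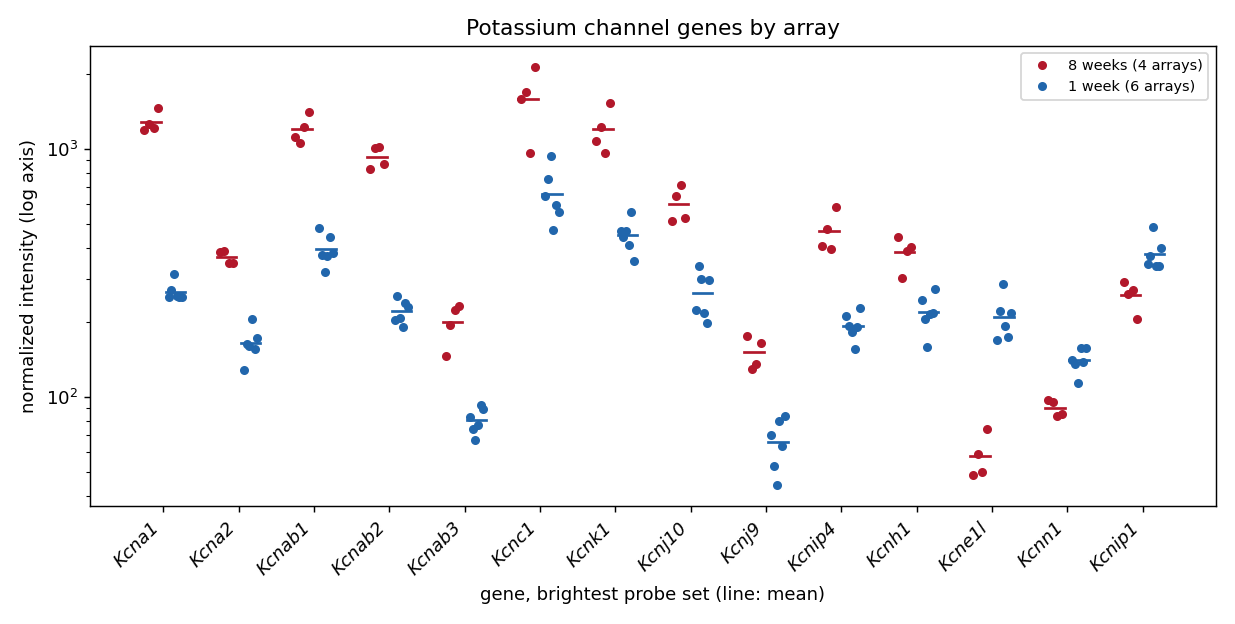
Normalized intensity (log axis) of 14 potassium channel genes on each array, 8 weeks in red (4 arrays) left of 1 week in blue (6 arrays), with the mean as a line. In the 11 genes from Kcna1 to Kcnh1 all arrays of 8 weeks lie above those of 1 week, and in Kcne1l, Kcnn1 and Kcnip1 below, of which Kcnn1 and Kcnip1 lose their calls without normalization.

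Promoter sequences are shown for 4 genes with no overlap between ages, to let the start regions of a Kv1 pore, a Kv3 pore, a glial inward rectifier and the gene with the steepest fall be compared. They come from RefSeq (build GRCm38.p6) and run from 250 bases before to 50 after a start, and 50 of the 62 genes matched an entry. Capitals mark GC boxes, the letters GGGCGG on either strand. The Kcna2 window lies at chr3:107101317-107101616 on the plus strand, that of Kcnc1 at chr7:46396218-46396517 on the plus strand, that of Kcnj10 at chr1:172340960-172341259 on the plus strand and that of Kcne1l at chrX:142306149-142306448 on the minus strand.
Kcna2: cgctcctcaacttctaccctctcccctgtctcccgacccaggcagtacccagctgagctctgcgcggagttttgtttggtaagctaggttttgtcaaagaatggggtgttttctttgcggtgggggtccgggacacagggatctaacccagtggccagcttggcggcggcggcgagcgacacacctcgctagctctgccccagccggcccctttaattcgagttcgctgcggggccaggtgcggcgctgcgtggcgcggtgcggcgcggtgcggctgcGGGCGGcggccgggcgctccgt
Kcnc1: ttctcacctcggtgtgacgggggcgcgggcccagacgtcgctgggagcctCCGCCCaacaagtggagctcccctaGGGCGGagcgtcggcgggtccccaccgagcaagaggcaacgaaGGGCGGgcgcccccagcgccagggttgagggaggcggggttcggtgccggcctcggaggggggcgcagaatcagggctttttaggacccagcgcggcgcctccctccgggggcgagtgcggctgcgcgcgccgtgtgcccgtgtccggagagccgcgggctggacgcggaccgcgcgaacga
Kcnj10: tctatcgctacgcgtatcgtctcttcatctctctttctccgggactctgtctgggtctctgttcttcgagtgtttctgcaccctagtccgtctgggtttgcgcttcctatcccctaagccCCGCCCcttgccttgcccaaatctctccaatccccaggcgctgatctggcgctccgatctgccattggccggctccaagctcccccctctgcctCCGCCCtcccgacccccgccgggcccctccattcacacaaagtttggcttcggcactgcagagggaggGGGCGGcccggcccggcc
Kcne1l: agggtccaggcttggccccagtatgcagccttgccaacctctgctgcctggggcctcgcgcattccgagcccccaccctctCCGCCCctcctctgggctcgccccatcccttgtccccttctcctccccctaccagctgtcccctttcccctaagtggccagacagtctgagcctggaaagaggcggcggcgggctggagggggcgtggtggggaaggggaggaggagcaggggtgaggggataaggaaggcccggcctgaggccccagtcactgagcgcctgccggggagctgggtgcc
Kcnc1 and Kcnj10 each hold 3 GC boxes in this window, and Kcna2 and Kcne1l, which changed in opposite directions, hold 1 each. Over 68 promoters of the listed genes 34 hold a GC box, beside 35.7% of 32851 promoters in the table, and their median GC content was 59.0%, beside 52.7%. The letters TTCAGCACC, the left part of the RE1 element bound by the neuronal repressor REST, were in 0 of the 68 windows on either strand and in 0.371% of all promoters. A match or its lack in these windows is a description of the sequence only.

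Kv3 pores, which close fast and serve neurons that fire at high rates, were higher in both listed genes, beside 21.9% of all genes. Kcnc1 read 1584, 1695, 963 and 2145 at 8 weeks, against 471, 619 and 935 at 1 week. The spread at 8 weeks was wide, and replicate 1 labelled male lay just above the highest array of 1 week. The change was 1.22 ± 0.20 (adjusted p = 6.38e-04), and it was 1.5 without replicate 1 labelled male at 8 weeks and 0.94 without replicate 2. Kcnc4, a fast-inactivating Kv3 pore, read 289, 258, 291 and 293 at 8 weeks, against 147, 179.6 and 263 at 1 week. The ages overlapped through 1 array of each, with a change of 0.52 ± 0.094 (adjusted p = 0.00128). Without the 4 arrays whose sex transcripts opposed their label, Kcnc4 did not pass (0.47, adjusted p = 0.108).

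Cerebellar neurons are a known site of Kv3 channels, and the cerebellar marker sum differed between arrays of the same age. At 8 weeks it was 22293 in replicate 2 labelled male and 6379 in replicate 1, with 14437 and 14484 in the arrays labelled female. Kcnc1 followed this order at both ends at 8 weeks. In all, 6 of the 35 genes had their highest 8-week value in replicate 2 labelled male and their lowest in replicate 1. They were Kcnc1, Kcnd2, Kcnip3, Kcnip4, Kcnj12 and Kcnk1, all among the 18 called higher at 8 weeks. How many of all genes follow this order was not counted, so the 6 cannot be read as a trait of potassium channel genes. At 1 week the highest cerebellar sum, 8303 in replicate 3 labelled female, went with the highest Kcnc1 value, 935, and replicate 1 labelled male at 8 weeks had a cerebellar sum of 6379 with Kcnc1 at 963. Kcna1 too had its highest value of each age in the array with the highest cerebellar sum of that age, 1466 at 8 weeks and 313 at 1 week. Its lowest 8-week value was in replicate 1 labelled female, and in the 8-week array with the lowest cerebellar sum it read 1214. Of the 9 cerebellar markers 6 were higher at 8 weeks and 3 did not pass, beside 21.9% of all genes higher. Their changes ran from 0.22 for Neurod1 to 3.61 for Gabra6. A like sum at the 2 ages need not mean a like cerebellar content. The part of cerebellar content in these changes was not tested.

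**Figure D4:**
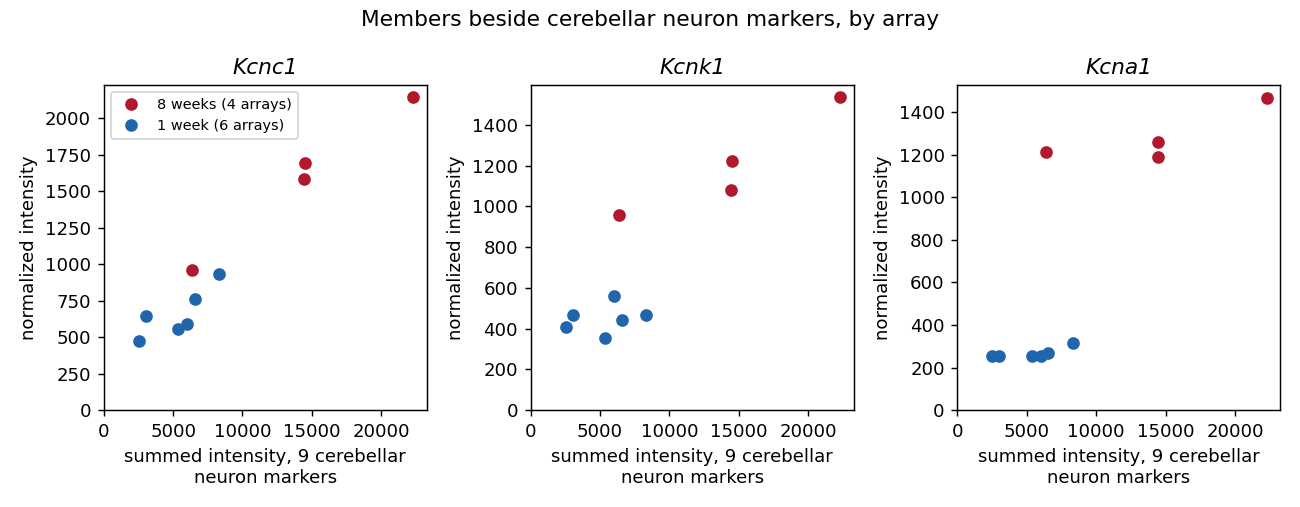
Normalized intensity of Kcnc1, Kcnk1 and Kcna1 (vertical axes) against the summed intensity of 9 cerebellar neuron markers (horizontal axes), 1 point per array, 8 weeks in red (4 arrays) and 1 week in blue (6 arrays). Kcnc1 of the 8-week array with a cerebellar sum of 6379 lies at 963, near the 1-week array with 935. In that 8-week array Kcnk1 lies at 959.8 and Kcna1 at 1214, above their highest 1-week values of 559 and 313. Of the 9 markers 6 were themselves higher at 8 weeks, beside 21.9% of all genes, so a like sum need not mean a like cerebellar content. The part of cerebellar content was not tested.

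Of the Kv4 pores, which carry a transient current in dendrites, Kcnd2 was higher and Kcnd1 did not pass, and Kcnd3 was below the filter. Kcnd2 read 769.7, 652, 553 and 836 at 8 weeks, against 452, 525 and 581 at 1 week. The ages overlapped, the change was 0.40 ± 0.11 (adjusted p = 0.0159), and the call was lost without replicate 1 labelled female at 8 weeks (0.34, adjusted p = 0.0676) or without replicate 2 labelled male at 8 weeks (0.25, adjusted p = 0.0587). The other 2 tested probe sets of Kcnd2 did not pass, at 0.11 ± 0.13 and 0.023 ± 0.10, and the mean over its probe sets did not either (0.18, adjusted p = 0.126). Nor did Kcnd2 pass without the 4 arrays whose sex transcripts opposed their label (0.42, adjusted p = 0.0999) or without 5 (0.46, adjusted p = 0.165). Kcnd1 had a log2 difference of 0.14 ± 0.09, with an interval of -0.056 to 0.34.

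KChIP genes, whose products bind Kv4 pores and raise their surface expression, went both ways. Kcnip4 read 405, 477, 395 and 585 at 8 weeks, against 157, 193 and 228 at 1 week. Its ages did not overlap, with a change of 1.16 ± 0.13 (adjusted p = 5.82e-05) and 1.22 ± 0.10 for a further probe set. Kcnip1 went the other way, reading 290.3, 259.7, 270.4 and 206 at 8 weeks, against 336, 356 and 484 at 1 week. All 8-week arrays lay below those of 1 week (change -0.52 ± 0.12, adjusted p = 0.00465), but the call was lost on the deposited scale (-0.0055, adjusted p = 0.978) and with spike-in scaling (-0.33, adjusted p = 0.217), and without the 5 arrays whose sex transcripts did not match their label (-0.38, adjusted p = 0.173). A further probe set of Kcnip1 did not pass, at -0.15 ± 0.12. Kcnip3, also known as the transcriptional repressor DREAM, read 322, 302, 249.7 and 357 at 8 weeks, against 179.9, 226 and 257 at 1 week. These ages overlapped, with a change of 0.42 ± 0.12 (adjusted p = 0.0162) that did not pass without replicate 1 labelled female (0.39, adjusted p = 0.0545) or replicate 2 labelled male at 8 weeks (0.29, adjusted p = 0.0739). Kcnip2 averaged 204 ± 52.7 at 8 weeks and 140.4 ± 51.8 at 1 week (SD, n = 4 and 6) and did not pass (adjusted p = 0.0800). It passed without replicate 2 labelled female at 8 weeks (0.68, adjusted p = 0.0398), without replicate 1 labelled female at 1 week (0.67, adjusted p = 0.00871), and with the replicate number as a block (0.42, adjusted p = 0.0353).

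Ether-a-go-go channel genes were higher in 2 of 3 measured members, of 4 listed, beside 21.9% of all genes. Kcnh1, the founding member of this group, read 439.9, 303, 387 and 404 at 8 weeks, against 159, 218 and 272 at 1 week. The ages did not overlap (change 0.75 ± 0.13, adjusted p = 0.00129). Kcnh2, the ERG pore known for its part in cardiac repolarization, read 234, 247, 279.6 and 258 at 8 weeks, against 159, 197 and 215 at 1 week. Its change was 0.36 ± 0.088 (adjusted p = 0.00753), again with no overlap of ages. Kcnh3 did not pass, with an interval of -0.56 to 0.14.

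Inward rectifier genes were higher in 4 of 6 measured members and none was lower, beside 21.9% and 24% of all genes. Of the 13 listed, 7 were below the filter. Kcnj10, the Kir4 pore through which astrocytes and oligodendrocytes take up potassium, read 514, 648, 716 and 529 at 8 weeks, against 199, 261 and 337 at 1 week. Every array of 8 weeks lay above those of 1 week, with a change of 1.14 ± 0.15 (adjusted p = 1.68e-04). Of the markers, 5 of 9 for astrocytes and 5 of 7 for myelin were higher at 8 weeks and none was lower, beside 21.9% and 24% of all genes. Among the astrocyte markers Aqp4, Gfap, Slc1a3 and Gja1 did not pass, nor did Mbp and Ugt8a among the myelin markers. Their part in the change of Kcnj10 was not tested. Kcnj9, a G protein-gated (GIRK) subunit of neurons, read 176, 129, 136 and 165 at 8 weeks, against 44.1, 67.1 and 83.5 at 1 week. Its ages did not overlap, with a change of 0.98 ± 0.12 (adjusted p = 1.24e-04). Its 1-week mean of 65.8 lay below 74.5, the mean intensity of the dimmest probe set tested. Kcnj9 thus passed the filter through its 8-week values.

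The other GIRK subunits measured did not pass. Kcnj3, the subunit that other GIRK subunits pair with, averaged 295 ± 44.0 at 8 weeks and 246 ± 63.4 at 1 week (SD, n = 4 and 6), and its interval was -0.065 to 0.59. Kcnj6 had an interval of -0.24 to 0.34 on the 1 of its 5 probe sets that was tested. Of the strong inward rectifiers, Kcnj4 read 244, 155, 218 and 202 at 8 weeks, against 55.1, 119.8 and 148 at 1 week. The lowest 8-week array, replicate 2 labelled female, lay only slightly above the highest of 1 week, and the change was 0.87 ± 0.21 (adjusted p = 0.00753). It did not pass without the 5 arrays whose sex transcripts did not match their label (0.54, adjusted p = 0.109). Kcnj12, of the same group, read 117, 139, 64.8 and 208 at 8 weeks, against 37.1, 65.6 and 77.8 at 1 week. Its 1-week mean of 59.7 lay below 74.5, the mean intensity of the dimmest probe set tested. Kcnj12 thus passed the filter through its 8-week values. Its 8-week values spread more than 3-fold between the 2 arrays labelled male and overlapped with 1 week, at a change of 0.84 ± 0.25 (adjusted p = 0.0192). Kcnj12 did not pass without replicate 2 labelled female at 8 weeks (0.78, adjusted p = 0.0645), and its probe set was below the filter without replicate 2 labelled male. Without the 4 arrays of opposed sex transcripts it did not pass either (0.70, adjusted p = 0.147), nor without 5 (0.65, adjusted p = 0.312).

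Among 2-pore channel genes 1 of 3 measured, of 8 listed, was higher and none lower, beside 21.9% and 24% of all genes. Kcnk1, a weak background channel of neurons and astrocytes, read 1082, 1222, 959.8 and 1537 at 8 weeks, against 353, 454 and 559 at 1 week. No array overlapped, and the change was 1.36 ± 0.15 (adjusted p = 5.36e-05), with 1.56 ± 0.16 for its other probe set. The mechanically gated channel genes did not pass. Kcnk2 averaged 440.4 ± 54.9 at 8 weeks and 523 ± 64.9 at 1 week (SD, n = 4 and 6), with an interval of -0.49 to 0.023. Kcnk4 was uneven at 1 week, with 145 in replicate 3 labelled male and 18.6 in replicate 1 of that label, and its log2 difference of 0.37 ± 0.32 did not pass (adjusted p = 0.370), while without replicate 3 labelled male at 1 week it did (0.64, adjusted p = 0.0292).

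Among BK channel genes 1 of 4 measured was higher and none lower, beside 21.9% and 24% of all genes. The count of genes higher is thus near the share of all genes. Kcnma1, the pore of the large-conductance BK channel, read 835, 714, 780.5 and 833 at 8 weeks, against 426, 604 and 774 at 1 week. The ages overlapped on this probe set, with a change of 0.39 ± 0.11 (adjusted p = 0.0151) that did not pass without replicate 1 labelled female (0.33, adjusted p = 0.0648) or replicate 2 labelled male at 8 weeks (0.36, adjusted p = 0.0530). It did not pass without the 4 arrays of opposed sex transcripts (0.35, adjusted p = 0.156), nor without 5 (0.061, adjusted p = 0.772). On its other probe set Kcnma1 read 259, 238, 308 and 273 at 8 weeks, against 101, 121 and 133 at 1 week, with no overlap and a change of 1.02 ± 0.088 (adjusted p = 1.18e-05). The 3 BK beta subunit genes did not pass. Kcnmb4, the beta subunit most widespread in neurons, read 614, 544, 558 and 696 at 8 weeks, against 448, 587 and 657 at 1 week. The ages overlapped widely, with an interval of -0.17 to 0.33. That of Kcnmb2 was -0.50 to 0.014, and it passed without replicate 1 labelled male at 1 week (-0.32, adjusted p = 0.0353). That of Kcnmb1, the smooth muscle beta subunit, was 0.01 to 0.45, and the call appeared once replicate 1 labelled female at 8 weeks was left out (0.33, adjusted p = 0.0259) or once replicate 1 labelled male at 1 week was (0.28, adjusted p = 0.0462).

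Small-conductance SK channels carry a calcium-activated current after a spike. Of their 2 measured genes 1 was lower, beside 24% of all genes. Kcnn1 read 97.2, 95.9, 84.2 and 85.5 at 8 weeks, against 114, 139.9 and 158 at 1 week. All arrays of 8 weeks lay below those of 1 week, with a change of -0.52 ± 0.079 (adjusted p = 4.51e-04). Its call too was lost on the deposited scale (-0.081, adjusted p = 0.581) and with spike-in scaling (-0.38, adjusted p = 0.156). Kcnn2, the brighter probe set of the measured SK genes, read 198, 156, 155 and 115 at 8 weeks, against 116, 137 and 146 at 1 week. Its ages overlapped and it did not pass, with an interval of -0.064 to 0.40.

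Kcne1l, an X-linked relative of the small membrane subunits that modulate Kv pores, had the steepest fall of the 35 genes. It read 48.5, 59.0, 49.7 and 74.1 at 8 weeks, against 170.3, 205 and 286 at 1 week. Its 8-week values lay below 74.5, the mean intensity of the dimmest probe set tested. It thus passed the filter through its 1-week values. The highest 8-week array lay well below the lowest of 1 week, with a change of -1.51 ± 0.14 (adjusted p = 1.72e-05). It was -1.10 on the deposited scale and -1.38 with spike-in scaling, and it passed under every alternative in which it was tested. All 8 immature neuron markers measured were also lower at 8 weeks, beside 24% of all genes, and their part was not tested.

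Below the filter lay 46 probe sets, and 27 genes had no other, among them all listed members of Kcnq (M-current pores), Kcns (silent Kv subunits) and Kcnu. Of these groups, the brightest probe sets were those of Kcnq5 (79.6 ± 12.3 at 8 weeks and 56.1 ± 13.2 at 1 week), Kcns2 (71.8 ± 3.98 at 8 weeks and 75.4 ± 13.9 at 1 week) and Kcnu1 (52.7 ± 14.3 at 8 weeks and 57.9 ± 8.46 at 1 week). The mean intensities of the 46 ran from 1.44 to 74.0, and no detection calls were used, so how far they stood above background is unknown. In the fit with no filter 7 of them were higher and 1 lower, beside 7.25% and 6.22% of the 9050 probe sets below the filter. Kcnk13, a 2-pore channel gene of microglia, averaged 56.1 ± 8.04 at 8 weeks and 21.0 ± 12.6 at 1 week (log2 change 0.88 ± 0.15, adjusted p = 0.00215). Of 8 microglia markers 7 were higher at 8 weeks, beside 21.9% of all genes, and their part was not tested. Their sums ran from 3337 to 4434 at 8 weeks and from 2477 to 3005 at 1 week. Kcnj8, an ATP-sensitive pore of pericytes, was the one that was lower, at 42.6 ± 19.9 at 8 weeks and 85.1 ± 22.0 at 1 week (log2 change -0.74 ± 0.17, adjusted p = 0.00950). Of 10 endothelial and mural markers 4 were lower and 1 higher at 8 weeks, beside 24% and 21.9% of all genes. Their summed intensity ran from 2795 to 3210.4 at 8 weeks and from 2918 to 3548 at 1 week. Kcnj11, the ATP-sensitive pore of neurons, averaged 62.9 ± 12.1 at 8 weeks and 39.2 ± 13.7 at 1 week (log2 change 0.48 ± 0.15, adjusted p = 0.0370).

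The age change was also examined within each label. At 1 week the label does not give the sex of the sample, so age changes by label cannot compare the sexes. Among arrays labelled female 13 of the 35 genes were higher and 3 lower at 8 weeks, beside 14% and 16% of all genes in that contrast. Among those labelled male 13 were higher and 3 lower, beside 15.5% and 16.5%. The sign was the same under both labels in 31 genes. For the difference in age change between labels limma called 0 of 44 potassium channel probe sets at an adjusted p under 0.05, beside 0% of all probe sets, and 2 at an unadjusted p under 0.05, beside 5.59%. The 2 were a dimmer probe set of Kcnd2 and the brightest of Kcnc4. At 8 weeks, where sex transcripts followed the labels, labelled male against labelled female gave 0 calls of 44 with limma, beside 0% of all probe sets. At an unadjusted p under 0.05 there was 1, beside 2.54%, which was Kcnab3 (log2 male minus female 0.39 ± 0.14, adjusted p = 1). The 2 arrays per label at 8 weeks limit the precision of this comparison.

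Genes whose proteins bind, anchor or resemble potassium channels were listed in 5 groups of 56 genes, chosen with earlier results of these data known. Of these 37 were on the array with a single symbol and 28 were measured after the filter, of which 13 were higher and 6 lower at 8 weeks, beside 21.9% and 24% of all genes. Kv1 complex and axonal membrane genes were higher in 7 of 11 members and lower in 2. Lgi4, a secreted glial ligand of the ADAM22 receptor, was 167 ± 41.9 at 8 weeks and 40.8 ± 11.8 at 1 week (SD, n = 4 and 6), a change of 1.55 ± 0.14. The 1-week values of Lgi4 lay below 74.5, the mean intensity of the dimmest probe set tested. It thus passed the filter through its 8-week values. Its relative Lgi1, which is found in complexes with Kv1 channels, changed by 0.85 ± 0.10. The scaffold genes Dlg4 and Dlg1, whose products bind the tails of Kv1 pores, changed by 0.99 ± 0.11 and 0.94 ± 0.10. Cntnap2, the Caspr2 adhesion protein that holds Kv1 channels beside nodes of Ranvier, was lower, at 275 ± 47.9 at 8 weeks and 375 ± 50.4 at 1 week (SD, n = 4 and 6, change -0.42 ± 0.13, adjusted p = 0.0247), but on the deposited scale its sign turned, at 0.090, and it did not pass with spike-in scaling (-0.24, adjusted p = 0.412) or as the mean over its probe sets (-0.052, adjusted p = 0.659). Nor did it without the 4 arrays of opposed sex transcripts (-0.22, adjusted p = 0.351). Without replicate 2 labelled female at 8 weeks (-0.37, adjusted p = 0.0874), replicate 2 labelled male at 8 weeks (-0.28, adjusted p = 0.110) or replicate 3 labelled male at 1 week (-0.38, adjusted p = 0.0532) Cntnap2 did not pass, nor with the replicate number as a block (-0.42, adjusted p = 0.0521). Cntn1, a paranodal adhesion protein, was the other that was lower (-0.36 ± 0.072), and its sign turned on the deposited scale, at 0.092, with no call under spike-in scaling (-0.26, adjusted p = 0.362). Without 5 arrays neither Cntn1 (-0.34, adjusted p = 0.0783) nor Cntnap2 (-0.13, adjusted p = 0.669) passed.

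Of 4 measured Kv2 and Kv4 partners 2 were higher, beside 21.9% of all genes. They were Amigo1 (0.59 ± 0.12), an auxiliary protein of Kv2, and Vapb (0.47 ± 0.10), an endoplasmic reticulum protein that tethers Kv2 clusters. Amigo1 did not pass without the 5 arrays whose sex transcripts did not match their label (0.49, adjusted p = 0.126), and Vapb neither without 4 (0.47, adjusted p = 0.0788) nor as the mean over its probe sets (0.23, adjusted p = 0.104). Inward rectifier partners were higher in 3 of 8 and lower in 3, beside 21.9% and 24% of all genes. The members higher were Gnb5, a G protein beta subunit that works with RGS proteins (0.71 ± 0.11), Abcc8, the sulfonylurea receptor of ATP-sensitive channels (0.69 ± 0.12), and Dtna, a dystrobrevin (0.31 ± 0.10). Those lower were Gnb2 (-0.75 ± 0.085) and Gnb1 (-0.39 ± 0.089), beta subunits of G proteins, and Dag1, the dystroglycan that anchors Kir4 channels in astrocyte endfeet (-0.63 ± 0.093). On the deposited scale the sign of Gnb1 turned, at 0.15, and Gnb2 and Dag1 did not pass (-0.23, adjusted p = 0.142, and -0.078, adjusted p = 0.648). With spike-in scaling neither Gnb1 (-0.20, adjusted p = 0.514) nor Dag1 (-0.42, adjusted p = 0.103) passed. Dtna did not pass without replicate 1 of either label at 8 weeks (0.24, adjusted p = 0.101, labelled female; 0.29, adjusted p = 0.0678, labelled male) or without replicate 2 labelled female at 1 week (0.29, adjusted p = 0.0511). Without 4 arrays neither Dtna (0.35, adjusted p = 0.141) nor Gnb1 (-0.23, adjusted p = 0.191) passed, and without 5 arrays Abcc8 (0.45, adjusted p = 0.0933), Dtna (0.22, adjusted p = 0.449) and Gnb1 (-0.077, adjusted p = 0.684) did not. Of 3 measured BK, SK and M-current partners 0 passed with limma, and 1 had an unadjusted p under 0.05. The pacemaker channel genes, relatives of the family that conduct both sodium and potassium, went in opposite directions. Hcn2 averaged 475 ± 72.5 at 8 weeks and 229 ± 14.8 at 1 week (change 0.97 ± 0.10), and Hcn3 averaged 103 ± 35.9 at 8 weeks and 360.2 ± 52.1 at 1 week (SD, n = 4 and 6, change -1.64 ± 0.16). For both, the arrays of the 2 ages did not overlap.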

How the data were processed

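The values analysed are the intensities that the authors deposited, 1 per probe set and array on a linear scale. The summarization software and settings are not given in the sources used here. The array annotation gave 1 symbol to 20380 probe sets, several to 691 and none to 1555 of the 22626 kept after leaving out 64 controls. Values were quantile-normalized, 24 (their 20th percentile before normalization) was added, and log2 was taken. The dimmest probe sets, below the 40th percentile of mean log2 value, were dropped. The model (R 4.3.3, limma 3.58.1, lmFit and eBayes) gave each combination of age and labelled sex its own mean. The contrasts were 8 weeks minus 1 week, the same within each label, labelled male minus female at 8 weeks, and the interaction. Two-sided p-values were adjusted by Benjamini-Hochberg over 13576 probe sets, with a threshold of 0.05, and intervals are 95% intervals from the moderated fit. A gene was represented by its brightest tested probe set. The pipeline was tested on simulated data. Members, lists, tests and alternatives were chosen with earlier results of these data known. Values per array were given for genes passing for age and for the brightest of a subfamily where it was tested; partner genes were named by size of change, up to 4 per list in its main direction and 2 in the other. Promoters were read from RefSeq tables (GRCm38.p6).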

Additional observations from a re-analysis of the deposited data

Results flagged for a closer look

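Among the 35 genes at each age, 70 sets of values in all, 4 held an array far from the others of its age by Dixon's test, where chance alone gives about 1 in 20. Kcna1 read 313 in replicate 3 labelled female at 1 week, against 252 to 269.8 in the other 5 arrays. Kcna4 read 148 and Kcna6 193 in replicate 1 labelled female at 8 weeks, against 98.6 to 104 and 177 to 179.8 in the other 3. That array also had the highest pituitary marker sum at 8 weeks, 13312, against 1019.9 to 4627 in the other 3, and the part of this was not tested. Kcnc4 read 258 in replicate 2 labelled female at 8 weeks, against 289 to 293.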

How the results depend on the processing

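Under the alternatives run, leaving aside the 2-fold requirement, the 35 potassium channel genes gave 818 recomputed age changes. Of these 773 kept their direction and side of the threshold. Of the rest 21 lost the call, 23 gained it and 1 reversed, Kcna3 at 0.37 on the deposited scale. These alternatives, where a gene was tested, left the call in place for 12 of 18 genes higher and 1 of 3 lower. The 2-fold requirement removes calls among those 12 too, such as that of Kcnh2, at a log2 change of 0.36. Counts moved by over 1.5 times in 4 settings. With at least 2-fold change required, genes were 9 higher and 1 lower, probe sets 14 and 1, and partner genes 1 and 1. On the deposited scale genes were 29 and 1, probe sets 37 and 1, and partner genes 20 and 1. With spike-in scaling 1 gene, 1 probe set and 2 partner genes were lower, and with a 60th percentile filter, under which fewer were tested, 1 gene and 1 probe set. On the deposited scale partner genes reversed to 0.090 for Cntnap2, 0.092 for Cntn1, 0.41 for Dlg2, 0.15 for Gnb1 and 0.39 for Nedd4l. Leaving out 1 array gave 14 to 19 genes higher and 3 to 4 lower, 19 to 24 and 3 to 4 probe sets, and 10 to 13 and 5 to 7 partner genes, with 0 calls for sex label or interaction throughout. Same-numbered arrays correlated in their deviations from group means by -0.025 to 0.19 over 13 pairs, 5 of them above 0.1, and 8 of 10 arrays correlated best, among arrays of other groups, with one of their own number. In the 8-week groups of 2 arrays the deviations mirror each other, so these pairs are not independent, and both pairs within 8 weeks gave -0.0040. Not every pair passed 0.1 and no label names a shared litter or day, so the numbers were not treated as pairing the samples. Whether some share a factor was not tested. With the replicate block 19 genes were higher and 3 lower, 24 and 3 probe sets, 13 and 6 partner genes, and 0 for sex label or interaction. Without the 4 arrays whose sex transcripts opposed their label, 14 genes were higher and 3 lower; without 5, chosen after seeing the data, which left 1 array of 1 week that was assumed to vary like those of 8 weeks, 15 and 2. The cause of these moves was not tested. The number of arrays and unknown background limit what dim genes can show.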
